A study of Mus musculus with 12 samples.

Results

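Genes of the endoplasmic reticulum (ER) folding machinery and of the unfolded protein response were followed across all 12 RNA-seq libraries of a mouse lung adenocarcinoma cell line. They are 37 genes, taken by symbol from a list that was made with earlier results of these data known, out of 24421 gene symbols in the count table. All 37 had at least 10 counts in at least 3 libraries, as did 13312 genes in the whole table, and all 37 were among the 13281 genes tested. Derl3, a derlin of the retrotranslocation machinery, was the lowest of them, with 5 to 26 counts a library.

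The cells carry the genotype KrasLSL-G12D/+; Trp53flox/flox, the "KP" model of lung adenocarcinoma, and this background is shared by every group. The 4 groups, each of 3 libraries, were sgBACH1_siFEM1B (BACH1 knockout by CRISPR/Cas9 plus an siRNA against FEM1B), sgCTRL_siFEM1B (control guide plus the FEM1B siRNA), sgBACH1_siCTRL (BACH1 knockout plus control siRNA) and sgCTRL_siCTRL (control guide plus control siRNA). RNA was taken 48 h after siRNA transfection. Only 1 knockout line and 1 control line are named, and whether either is a clone is not stated in the sources used here, so a difference between the lines cannot be told apart from an effect of losing BACH1. BACH1 is a haem-sensing transcriptional repressor, and FEM1B is the substrate receptor of a cullin-RING ubiquitin ligase of the reductive stress response.

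Proteins that enter the ER are folded there by HSP70- and HSP90-type chaperones, by lectin chaperones that read their glycans, and by disulfide and prolyl isomerases. Misfolded clients are sent back to the cytosol for proteasomal degradation (ER-associated degradation). When folding falls behind, the membrane sensors IRE1 (gene Ern1), PERK (gene Eif2ak3) and ATF6 start the unfolded protein response, in which spliced XBP1 and cleaved ATF6 switch on chaperone and degradation genes. Levels of total Xbp1 mRNA do not show its splicing, and mRNA levels do not show cleavage of ATF6.

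Library totals ran between 16539168 and 22196999 counts, and levels are given as CPM, a library's counts scaled to a common total with edgeR's TMM factors. On this scale 1 count is worth 0.04461 to 0.06035 CPM. The siRNA target Fem1b was measured at 46.2, 54.5 and 46.4 CPM in sgBACH1_siFEM1B, 43, 58 and 54.2 in sgCTRL_siFEM1B, 140.5, 136 and 141 in sgBACH1_siCTRL and 157, 167 and 164 in sgCTRL_siCTRL. Its level went with the labels. Bach1 mRNA was at 40, 39.3 and 40.5 CPM in sgBACH1_siFEM1B, 42.3, 44.1 and 37.7 in sgCTRL_siFEM1B, 31, 27.6 and 29.7 in sgBACH1_siCTRL and 29.6, 33.6 and 31 in sgCTRL_siCTRL. It does not mark the knockout. A Cas9 lesion need not lower the mRNA, but these counts show neither the lesion nor BACH1 protein. The knockout is therefore taken from the labels, and why the mRNA was not lower was not tested. Of 6 epithelial markers all 6 were tested. They summed to 7814 to 7958 CPM in sgBACH1_siFEM1B, 8571 to 9246 in sgCTRL_siFEM1B, 7082 to 7999 in sgBACH1_siCTRL and 8977 to 9380 in sgCTRL_siCTRL. Single markers differed between the lines: Krt7 averaged 585 CPM in sgBACH1_siFEM1B, 1439 in sgCTRL_siFEM1B, 446 in sgBACH1_siCTRL and 1733 in sgCTRL_siCTRL. Cdh1 averaged 615 CPM in sgBACH1_siFEM1B, 400.05 in sgCTRL_siFEM1B, 645 in sgBACH1_siCTRL and 322 in sgCTRL_siCTRL. Epcam was near 0, with a highest group mean of 1.53 CPM, in sgBACH1_siFEM1B. Of 6 alveolar type 2 markers only Abca3 and Lamp3 were tested, and Sftpa1 and Nkx2-1 had no count in any library. Leukocyte markers (0 of 6 tested, at most 0.814 CPM summed) and plasma cell markers (0 of 5 tested, at most 0.486 CPM summed) were near 0. Fibroblast markers (3 of 6 tested, none at 0 throughout) summed to 9.55 to 11.2 CPM in sgBACH1_siFEM1B, 18.3 to 21.6 in sgCTRL_siFEM1B, 8.58 to 10.7 in sgBACH1_siCTRL and 23.2 to 25.0 in sgCTRL_siCTRL. Endothelial markers (1 of 4 tested) summed to at most 2.14 CPM. The part of these marker differences in the results was not tested, and in bulk RNA fewer cells of a type and less RNA per cell cannot be told apart.

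A pair of libraries stood apart for these genes. Replicate 2 of sgBACH1_siFEM1B was the highest of its group for 28 of the 37 members (75.7%, against 39.7% of all genes tested), and replicate 3 of sgCTRL_siFEM1B for 23 of 37 (62.2%, against 38% of all genes tested). Results that rest on them are given with and without them. Both were picked by the levels of these same members, so a call gained without them is no independent support. Why they stood apart was not tested.

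ATF6 and spliced XBP1 are known to act through the ER stress response element (ERSE), and the promoter windows of the members were searched for it because many of the changes below concern its textbook targets. The search used RefSeq windows of mouse build GRCm38.p6, with 250 bases before and 50 after the annotated start; 31 of the 37 members matched, and Hspa13, Atf6, Sil1, Derl1, Hyou1 and Manf did not. The ERSE was searched as CCAAT and CCACG with 9 bases of any kind between them. ERSE-II was searched as ATTGG and CCACG with 1 base between them, and the core of the unfolded protein response element as TGACGTG. All were searched on both strands with exact letters. An ERSE stood in 9 of the 31 members with a window (29%), against 37 of all 27025 genes in the table (0.137%). ERSE-II stood in Dnajb11 and Herpud1 (6.45% of the 31, against 12 genes or 0.0444%), and no member held both. The TGACGTG core stood in Hspa5, Txndc11 and Txndc5 (9.68%, against 601 genes or 2.22%), in Hspa5 outside the ERSE. These are matches of letters and show no binding. The members were listed as genes of this response and hold textbook targets of the element. Their higher shares therefore follow from the choice of genes and are no result of these data.

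The matching sites are shown so that genes with the element can be recognised in the results. Each is written 5′ to 3′ on the gene's strand, with the fixed letters of the motif in capitals, and the number is the position of its first base counted from the start site (-1 is the base before it). Sites that begin with CGTGG are read on the opposite strand.
Hspa5, -65: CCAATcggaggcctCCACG
Hsp90b1, -212: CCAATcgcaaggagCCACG
Hsp90b1, -107: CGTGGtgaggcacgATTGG
Calr, -162: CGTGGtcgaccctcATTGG
Creld2, -126: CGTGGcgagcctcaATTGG
Canx, -145: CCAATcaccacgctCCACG
Pdia6, -98: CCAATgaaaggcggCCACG
Dnajc3, -105: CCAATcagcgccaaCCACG
Syvn1, -44: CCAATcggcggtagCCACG
Derl3, -156: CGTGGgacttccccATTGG
Herpud1 (ERSE-II), -52: ATTGGgCCACG
Dnajb11 (ERSE-II), 8: ATTGGcCCACG

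The 250 bases upstream of 4 of these genes, those whose siRNA effect differed between the genotypes and which hold an ERSE, are printed whole from the same RefSeq table to show where the element lies in the promoter. They are on the plus strand at chr2:34771840-34772089 (Hspa5) and chr15:88819396-88819645 (Creld2), and on the minus strand at chr10:86705445-86705694 (Hsp90b1) and chr8:84846932-84847181 (Calr). Capitals again mark the fixed letters of the ERSE.
Hspa5: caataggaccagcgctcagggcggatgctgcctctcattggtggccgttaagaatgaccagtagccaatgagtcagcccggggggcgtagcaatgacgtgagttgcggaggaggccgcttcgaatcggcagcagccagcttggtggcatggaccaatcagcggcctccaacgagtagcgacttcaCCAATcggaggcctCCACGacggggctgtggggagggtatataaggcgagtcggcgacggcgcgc
Hsp90b1: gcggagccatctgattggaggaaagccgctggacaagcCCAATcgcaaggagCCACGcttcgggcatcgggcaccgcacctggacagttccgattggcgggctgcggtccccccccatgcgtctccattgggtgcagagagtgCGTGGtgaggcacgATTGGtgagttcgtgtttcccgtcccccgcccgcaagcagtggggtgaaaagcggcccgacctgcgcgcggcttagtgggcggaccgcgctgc
Calr: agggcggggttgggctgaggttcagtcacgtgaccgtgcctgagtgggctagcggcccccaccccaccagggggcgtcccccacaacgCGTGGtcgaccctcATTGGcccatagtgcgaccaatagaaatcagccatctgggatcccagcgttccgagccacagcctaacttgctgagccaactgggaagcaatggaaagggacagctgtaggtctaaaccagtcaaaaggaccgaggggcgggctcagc
Creld2: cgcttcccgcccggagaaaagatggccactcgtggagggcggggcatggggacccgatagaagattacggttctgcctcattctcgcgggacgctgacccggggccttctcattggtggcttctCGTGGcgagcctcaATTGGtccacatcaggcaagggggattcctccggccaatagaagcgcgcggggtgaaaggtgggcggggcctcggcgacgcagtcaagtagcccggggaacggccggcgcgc

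**Figure D1:**
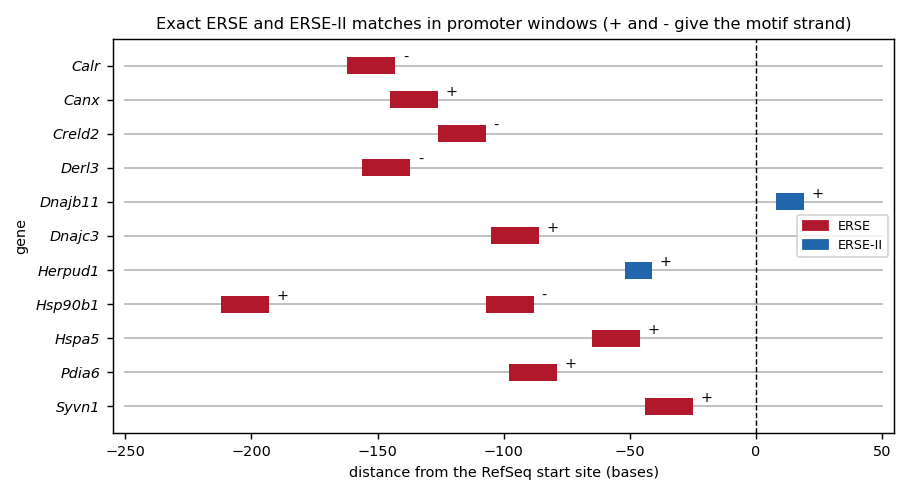
Exact ERSE (red) and ERSE-II (blue) matches in the promoter windows of the 11 genes that hold one, by distance from the RefSeq start site in bases (x axis, dashed line at the start); + and - give the strand of the motif. All matches but that of Dnajb11, which begins 8 bases past the start, lie upstream, and Hsp90b1 holds 2.

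The siRNA against FEM1B had different effects on several ER chaperones in BACH1 knockout and control cells. The difference is the interaction: the log2 fold change that the siRNA gave in the knockout line, less the one it gave in the control line. It was tested with edgeR's quasi-likelihood test over all genes and called at a Benjamini-Hochberg adjusted p below 0.05. Of the 37 members, 9 were called lower and 0 higher, and among all genes tested 2.6% were called lower and 3.48% higher. The 9 were the chaperones Hspa5, Hsp90b1 and Hyou1, the co-chaperone Dnajb11, the disulfide isomerases P4hb and Creld2, the lectin chaperone Calr, the secreted factor Manf and the degradation gene Edem1. The log2 difference was below 0 for 31 of 37 members, with a median of -0.22 against 0.02 over all genes tested. At an unadjusted p below 0.05 the counts were 20 lower and 0 higher, and DESeq2 called 15 lower and 0 higher. Without replicate 2 of sgBACH1_siFEM1B the count of lower members was 18 (background 6.72%), without both libraries that stood apart it was 23 (background 9.64%), and all 9 stayed called without both. These libraries were picked by the levels of the members, so the larger counts are no independent support for the interaction.

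Hspa5 (BiP), the HSP70 of the ER lumen that also holds the stress sensors inactive, was measured at 933, 1399 and 918 CPM in sgBACH1_siFEM1B, 1068, 1183 and 1542 in sgCTRL_siFEM1B, 1394, 1327 and 1425 in sgBACH1_siCTRL and 904, 956 and 863 in sgCTRL_siCTRL. Either loss alone gave levels above every sgCTRL_siCTRL library, while 2 of the 3 libraries with both were close to sgCTRL_siCTRL and the other, the library that stood apart, was inside the sgBACH1_siCTRL range. The siRNA lowered Hspa5 in knockout cells (log2 fold change -0.35 ± 0.13, SE; adjusted p = 0.0304) and raised it in control cells (0.48 ± 0.13, adjusted p = 0.0042). The call in knockout cells ended without replicate 1 or 3 of sgBACH1_siFEM1B (adjusted p = 0.154 and 0.165), without replicate 1 or 3 of sgBACH1_siCTRL (0.0729 and 0.0869) and with DESeq2 (0.121). The difference between these effects was -0.83 ± 0.18 (adjusted p = 0.0108), and -0.92 without both libraries that stood apart.

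Hsp90b1 (GRP94), the HSP90 of the ER, also had its highest mean in sgBACH1_siCTRL and its next in sgCTRL_siFEM1B. Its levels were 899.8, 1268 and 915 CPM in sgBACH1_siFEM1B, 1127, 1174 and 1348 in sgCTRL_siFEM1B, 1367, 1319 and 1339.6 in sgBACH1_siCTRL and 1029, 1088 and 972 in sgCTRL_siCTRL. All sgBACH1_siFEM1B libraries lay below all sgBACH1_siCTRL libraries, and all sgCTRL_siFEM1B libraries above all sgCTRL_siCTRL libraries. The interaction was -0.62 ± 0.13 (adjusted p = 0.0106), with -0.38 ± 0.09 in knockout cells (adjusted p = 0.00276) and 0.24 ± 0.09 in control cells (adjusted p = 0.0445). The call in control cells was near the threshold and ended without any of the sgBACH1_siCTRL libraries, replicates 1 or 3 of sgCTRL_siCTRL or replicates 2 or 3 of sgCTRL_siFEM1B (adjusted p up to 0.156), with DESeq2 (0.105) and with chromosome medians removed (0.0571). Hspa5 and Hsp90b1 were the members called lower with the siRNA in knockout cells and higher with it in control cells, which 30 of all 13281 genes were (0.226%).

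Hyou1 (GRP170), the nucleotide exchange factor of Hspa5, was at 176, 202 and 182 CPM in sgBACH1_siFEM1B, 215, 220.5 and 232 in sgCTRL_siFEM1B, 241, 224 and 231 in sgBACH1_siCTRL and 206, 217 and 203 in sgCTRL_siCTRL. All 3 sgBACH1_siFEM1B libraries were below every other library. The siRNA lowered it in knockout cells (-0.32 ± 0.06, adjusted p = 0.000166), in control cells the value was 0.09 ± 0.06 (adjusted p = 0.186), and the interaction was -0.41 ± 0.08 (adjusted p = 0.00577).

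Manf, a secreted ER stress protein that binds Hspa5, was at 154, 169 and 151 CPM in sgBACH1_siFEM1B, 117, 129 and 157.5 in sgCTRL_siFEM1B, 146, 151 and 144 in sgBACH1_siCTRL and 86.1, 82.9 and 76.6 in sgCTRL_siCTRL. It was lowest in all 3 sgCTRL_siCTRL libraries. Its mean was 158 CPM in sgBACH1_siFEM1B, 135 in sgCTRL_siFEM1B, 147 in sgBACH1_siCTRL and 81.9 in sgCTRL_siCTRL. With the siRNA its log2 fold change was 0.11 ± 0.08 in knockout cells (adjusted p = 0.31), it rose by 0.71 ± 0.08 in control cells (adjusted p = 9.22e-07), and the interaction was -0.61 ± 0.11 (adjusted p = 0.00441). Unlike for Hspa5, no sgBACH1_siFEM1B library was near the sgCTRL_siCTRL level of Manf.

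Calr (calreticulin), the soluble lectin chaperone, was at 772.5, 924 and 820.1 CPM in sgBACH1_siFEM1B, 1004, 1026 and 1237.5 in sgCTRL_siFEM1B, 856, 840.4 and 829 in sgBACH1_siCTRL and 822, 779 and 781 in sgCTRL_siCTRL. Creld2, a secreted ER stress protein with isomerase activity, was at 33.6, 40.7 and 36 CPM in sgBACH1_siFEM1B, 44.8, 48 and 56.8 in sgCTRL_siFEM1B, 36.7, 41.1 and 36.7 in sgBACH1_siCTRL and 35.9, 34.9 and 33.2 in sgCTRL_siCTRL. Dnajb11 (ERdj3), a DnaJ partner of Hspa5, was at 69.6, 70.4 and 69.2 CPM in sgBACH1_siFEM1B, 89.4, 89.6 and 99.4 in sgCTRL_siFEM1B, 64.4, 67.9 and 64.3 in sgBACH1_siCTRL and 71.1, 65.7 and 69.2 in sgCTRL_siCTRL. For these genes sgCTRL_siFEM1B stood above all other libraries and the other groups lay close together. In knockout cells the log2 fold change with the siRNA was -0.00 ± 0.07 for Calr (adjusted p = 0.964), -0.06 ± 0.09 for Creld2 (adjusted p = 0.654) and 0.09 ± 0.06 for Dnajb11 (adjusted p = 0.243). In control cells the siRNA raised Calr (0.46 ± 0.07, adjusted p = 3.29e-05), Creld2 (0.52 ± 0.09, adjusted p = 7.55e-05) and Dnajb11 (0.43 ± 0.06, adjusted p = 6.75e-06). The interactions were -0.46 ± 0.10 for Calr and -0.58 ± 0.13 for Creld2 (adjusted p = 0.0119 for each) and -0.34 ± 0.08 for Dnajb11 (adjusted p = 0.0206). That of Dnajb11 ended without replicate 2 of sgCTRL_siCTRL, replicate 1 of sgBACH1_siCTRL or replicate 1 or 3 of sgBACH1_siFEM1B (adjusted p up to 0.0598).

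Edem1, the mannosidase-like protein that hands misfolded glycoproteins to degradation, was at 116, 136 and 109 CPM in sgBACH1_siFEM1B, 138, 138 and 137.5 in sgCTRL_siFEM1B, 109, 106 and 110.5 in sgBACH1_siCTRL and 91.5, 97.3 and 93.7 in sgCTRL_siCTRL. In knockout cells the log2 fold change with the siRNA was 0.15 ± 0.06 (adjusted p = 0.0683), in control cells the siRNA raised it (0.55 ± 0.06, adjusted p = 1.25e-06), and the interaction was -0.40 ± 0.09 (adjusted p = 0.0156). P4hb, the founding protein disulfide isomerase, was at 1208, 1411 and 1222 CPM in sgBACH1_siFEM1B, 1389.8, 1573 and 1719 in sgCTRL_siFEM1B, 1253, 1294 and 1244 in sgBACH1_siCTRL and 1279, 1209.55 and 1188 in sgCTRL_siCTRL, with an interaction of -0.33 ± 0.10 (adjusted p = 0.0491). The call of Edem1 ended without replicate 3 of sgBACH1_siCTRL or replicate 1 or 3 of sgBACH1_siFEM1B (adjusted p = 0.051, 0.0569 and 0.0558). That of P4hb, lost most often of the 9, was kept in 3 of the 12 fits that left out 1 library, those without replicate 1 or 3 of sgCTRL_siFEM1B or replicate 2 of sgBACH1_siFEM1B (adjusted p up to 0.143 in the others). Hspa5, Hsp90b1, Hyou1, Manf, Creld2 and Calr kept the call in all 12.

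**Figure D2:**
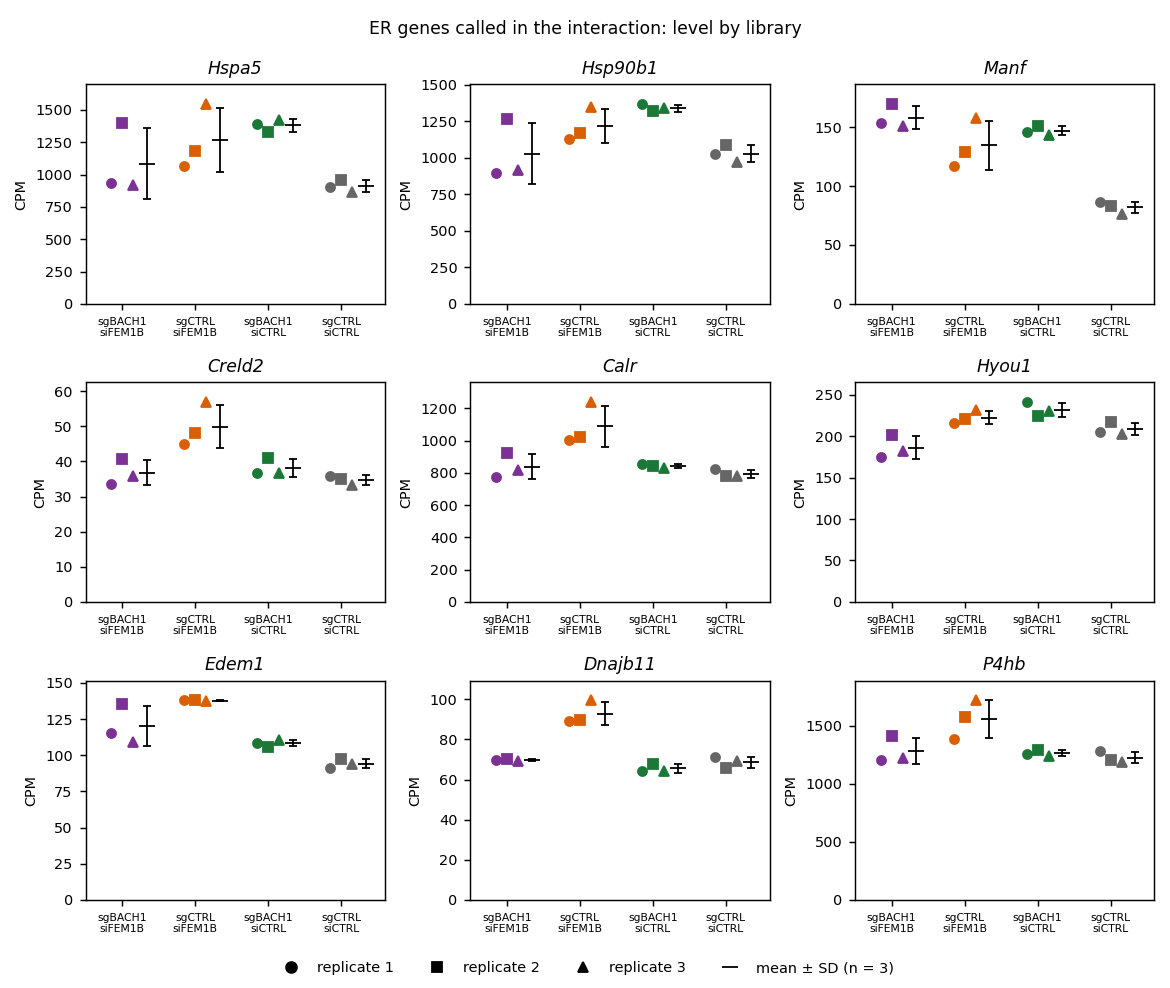
Level in CPM (y axis, from 0) of the 9 members called in the interaction, by group (x axis) and library (symbols give the replicate number, bars the mean ± SD, n = 3). For Hspa5 the 3 sgBACH1_siCTRL libraries lie between 1327 and 1425 CPM, and sgBACH1_siFEM1B replicate 2, at 1399 CPM, stands apart from its group at 933 and 918 CPM.

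By role, 3 of 6 HSP70 and HSP90 chaperones and partners, 1 of 3 DnaJ co-chaperones, 2 of 9 disulfide isomerases, 1 of 2 lectin chaperones, 1 of 2 secreted and calcium factors and 1 of 8 degradation genes were called in the interaction, and none of the 3 sensors and factors, the 2 prolyl isomerases or the 2 translocon genes. The first group counts Sil1 and Sdf2l1, which are partner proteins and not chaperones of these families. Some members were near the threshold. Erp44 (-0.27 ± 0.08, adjusted p = 0.0515), the translocon gene Ssr1 (-0.30 ± 0.09, adjusted p = 0.0526) and Wfs1 (-0.28 ± 0.09, adjusted p = 0.0664) missed it. Each of these was called with RLE size factors and with DESeq2. Xbp1, the transcription factor of the IRE1 branch, missed the threshold at -0.28 ± 0.10 (adjusted p = 0.0983) and passed it without both libraries that stood apart (-0.33, adjusted p = 0.00657). Set by promoter, 5 of the 11 members with an ERSE or ERSE-II, 2 of the 20 with neither and 2 of the 6 without a window in the table were called. Of all genes tested 2.6% were called lower. Canx, Pdia6, Dnajc3, Syvn1, Derl3 and Herpud1 hold an ERSE or ERSE-II and were not called. The count is a description, and the difference was not tested.

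In knockout cells the siRNA raised 4 members and lowered 12, against 21.9% and 19.8% of all genes tested, with a median of -0.03 against 0.02. The lower members beside Hspa5, Hsp90b1 and Hyou1 held Dnajc3 (p58IPK), an inhibitor of PERK, at 36.6, 43.1 and 36.7 CPM in sgBACH1_siFEM1B, 35.6, 37.1 and 38.3 in sgCTRL_siFEM1B, 48, 44.9 and 49.2 in sgBACH1_siCTRL and 34.6, 36.4 and 37.3 in sgCTRL_siCTRL (-0.29 ± 0.07, adjusted p = 0.00366). Pdia5, a disulfide isomerase, was at 20.7, 22.3 and 19.3 CPM in sgBACH1_siFEM1B, 27.6, 29.5 and 27.7 in sgCTRL_siFEM1B, 27.6, 26.3 and 26.8 in sgBACH1_siCTRL and 27.1, 30.7 and 28.2 in sgCTRL_siCTRL (-0.37 ± 0.08, adjusted p = 0.00102). For both genes the knockout groups did not overlap, and sgBACH1_siCTRL stood apart for Dnajc3 and sgBACH1_siFEM1B for Pdia5. Neither passed in the interaction as fitted (adjusted p = 0.0681 and 0.0662). Both were called in it with DESeq2, and without replicate 2 of sgBACH1_siFEM1B, a library that stood apart. The 4 called higher were Herpud1 (0.29 ± 0.10, adjusted p = 0.0279), Sec61b (0.28 ± 0.11, adjusted p = 0.0414), Syvn1 (0.18 ± 0.06, adjusted p = 0.0185) and Ppib (0.15 ± 0.05, adjusted p = 0.0317); the count of higher members was 1 without replicate 1 or 3 of sgBACH1_siCTRL and 2 without replicate 1 or 2 of sgBACH1_siFEM1B.

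In control cells the FEM1B siRNA raised 19 of the 37 members and lowered 5, against 22.1% of all genes tested called higher and 22.9% lower. The median log2 fold change of the members was 0.17, against 0 over all genes. The count of higher members was 18 with DESeq2.

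Disulfide isomerases and their relatives made up the broadest group, with 6 of 9 higher. Beside P4hb (0.35 ± 0.07, adjusted p = 0.000361) and Creld2 they were Txndc11 (0.37 ± 0.08, adjusted p = 0.000653), Erp44, which retrieves clients from the early secretory pathway (0.24 ± 0.06, adjusted p = 0.00161), Pdia3 (ERp57), the partner of the lectin chaperones (0.20 ± 0.05, adjusted p = 0.00332), and Pdia6 (0.16 ± 0.06, adjusted p = 0.0365). The call of Pdia6 ended without replicate 1 or 3 of sgCTRL_siCTRL or replicate 2 or 3 of sgCTRL_siFEM1B (adjusted p up to 0.14). Pdia4 was at 0.07 (adjusted p = 0.386) and Pdia5 at -0.02 (adjusted p = 0.866). Txndc5 went the other way, as described below.

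Among other groups, Xbp1 was at 132, 153 and 126 CPM in sgBACH1_siFEM1B, 117, 128 and 140.3 in sgCTRL_siFEM1B, 120, 122 and 129 in sgBACH1_siCTRL and 98.8, 94.4 and 91.8 in sgCTRL_siCTRL. It was lowest in all 3 sgCTRL_siCTRL libraries. Its log2 fold change with the siRNA was 0.15 in knockout cells (adjusted p = 0.101), and in control cells it rose by 0.43 ± 0.07 (adjusted p = 6.68e-05). Sdf2l1, an ER stress-induced partner of DnaJ proteins, was at 17.6, 28.7 and 15.7 CPM in sgBACH1_siFEM1B, 24, 21.7 and 29.6 in sgCTRL_siFEM1B, 18.3, 16.6 and 16.9 in sgBACH1_siCTRL and 20, 15.4 and 17.2 in sgCTRL_siCTRL. It rose with the siRNA in control cells (0.51 ± 0.16, adjusted p = 0.0144), a call that ended without replicate 2 of sgCTRL_siCTRL or replicate 3 of sgCTRL_siFEM1B (adjusted p = 0.0738 and 0.0679). Its interaction was -0.25 ± 0.23 as fitted (adjusted p = 0.553) and -0.56 without the high sgBACH1_siFEM1B replicate 2 (adjusted p = 0.0337).

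Stress-induced members did not all follow. Dnajb9 (ERdj4), a DnaJ protein that represses IRE1, was at 22.8, 30.2 and 25.8 CPM in sgBACH1_siFEM1B, 20.3, 24.6 and 27.4 in sgCTRL_siFEM1B, 27.2, 25.6 and 26.6 in sgBACH1_siCTRL and 25.4, 28.4 and 26.2 in sgCTRL_siCTRL. The groups overlapped throughout, and it was called in none of the 5 comparisons as fitted. Without both libraries that stood apart it was called lower with the siRNA in control cells. Herpud1, a scaffold of the degradation complex, was at 138, 104 and 147 CPM in sgBACH1_siFEM1B, 136, 115 and 105.5 in sgCTRL_siFEM1B, 103, 113 and 102.5 in sgBACH1_siCTRL and 112, 99.9 and 97.7 in sgCTRL_siCTRL. With the siRNA Herpud1 was called at 0.29 ± 0.10 in knockout cells (adjusted p = 0.0279), and the value was 0.20 ± 0.10 in control cells (adjusted p = 0.111). In control cells it became a call without replicate 3 of sgCTRL_siFEM1B, without replicate 2 of sgBACH1_siFEM1B and without both. It was also called there with no filter on low counts. In sgBACH1_siFEM1B the replicate 2 level of Herpud1 was low and not high, unlike that of Hspa5. The call in knockout cells ended without replicate 1 or 3 of either knockout group (adjusted p up to 0.175). Derl3 was at 0.44, 1.4 and 0.30 CPM in sgBACH1_siFEM1B, 0.71, 0.34 and 0.43 in sgCTRL_siFEM1B, 0.68, 0.998 and 0.69 in sgBACH1_siCTRL and 0.36, 0.71 and 0.35 in sgCTRL_siCTRL, too few counts to show a difference at this depth.

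**Figure D3:**
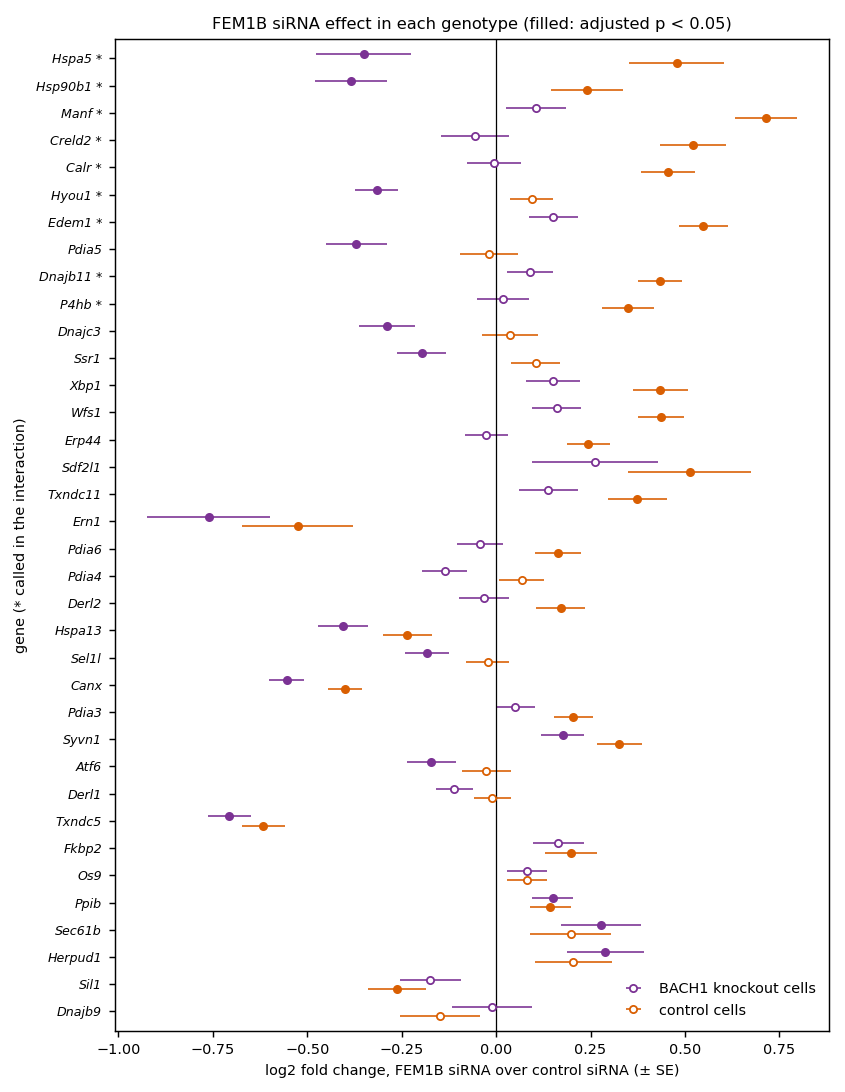
Log2 fold change, FEM1B siRNA over control siRNA (x axis, ± SE), of 36 members in BACH1 knockout cells (purple) and control cells (orange), ordered by the difference; filled points were called, asterisks mark the interaction calls, and Derl3 is left out for its wide error. Control-cell points lie to the right of knockout points for most members, with Hspa5 at -0.35 in knockout and 0.48 in control cells.

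Txndc5, Canx, Hspa13 and Ern1 were lower with FEM1B siRNA in both genotypes, which 13.4% of all genes tested were. Txndc5 (ERp46), a thioredoxin-domain disulfide isomerase, was at 137, 157 and 137 CPM in sgBACH1_siFEM1B, 130, 138 and 137 in sgCTRL_siFEM1B, 236, 225 and 241 in sgBACH1_siCTRL and 209, 206 and 207 in sgCTRL_siCTRL. Its log2 fold change was -0.71 ± 0.06 in knockout cells (adjusted p = 1.75e-08) and -0.62 ± 0.06 in control cells (adjusted p = 5.78e-08). Canx (calnexin), the membrane-bound lectin chaperone and counterpart of calreticulin, was at 367, 382 and 369 CPM in sgBACH1_siFEM1B, 390, 398 and 387 in sgCTRL_siFEM1B, 554, 536 and 552 in sgBACH1_siCTRL and 505, 533 and 511 in sgCTRL_siCTRL. It fell by 0.55 in knockout cells (-0.55 ± 0.05, adjusted p = 2.2e-08) and by 0.40 in control cells (-0.40 ± 0.05, adjusted p = 8.16e-07), so in control cells the lectin pair moved apart, Calr up and Canx down. Canx holds an ERSE match as Calr does.

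Hspa13, a microsomal HSP70-like ATPase, was at 40, 40.2 and 40.5 CPM in sgBACH1_siFEM1B, 45.6, 43.7 and 40.02 in sgCTRL_siFEM1B, 53.1, 51.6 and 55.2 in sgBACH1_siCTRL and 49.7, 53.5 and 49.1 in sgCTRL_siCTRL. The siRNA lowered it by 0.41 in knockout cells (-0.41 ± 0.07, adjusted p = 6.11e-05) and by 0.24 in control cells (-0.24 ± 0.07, adjusted p = 0.0062). The call in control cells ended without replicate 3 of sgCTRL_siFEM1B (adjusted p = 0.0505). Ppib (cyclophilin B) and Syvn1 were higher in both genotypes, which 13.7% of all genes tested were. The calls of Ppib ended in knockout cells without replicate 1 or 3 of either knockout group (adjusted p up to 0.128). In control cells its groups overlapped, and the call ended without replicate 2 or 3 of either control group (adjusted p up to 0.153), with no filter on low counts (0.0504) and with only the 6 libraries compared (0.0613). That of Syvn1 in knockout cells ended without replicate 2 of sgBACH1_siFEM1B or of sgBACH1_siCTRL (adjusted p = 0.0536 and 0.0882).

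Of the sensor genes, Ern1 was called lower in all 4 comparisons between groups and Atf6 in 3. Ern1, which encodes IRE1, the kinase and RNase that splices Xbp1 mRNA, was at 12.2, 11.8 and 9.41 CPM in sgBACH1_siFEM1B, 26, 20.4 and 14 in sgCTRL_siFEM1B, 20.9, 18.2 and 17.8 in sgBACH1_siCTRL and 26.2, 30.8 and 30.7 in sgCTRL_siCTRL. Both single losses lay below sgCTRL_siCTRL and the combination was lowest. Replicate 1 of sgCTRL_siFEM1B was only just below the lowest sgCTRL_siCTRL library (26.05 against 26.19 CPM), and replicate 3, which stood apart, was the lowest of its group. With the siRNA its log2 fold change was -0.76 ± 0.16 in knockout cells (adjusted p = 0.000859) and -0.53 ± 0.15 in control cells (adjusted p = 0.00644), and with the knockout it was -0.86 ± 0.16 under FEM1B siRNA (adjusted p = 0.000151) and -0.63 ± 0.15 under control siRNA (adjusted p = 0.00151). All 4 calls were kept in each of the 12 fits that left out 1 library. For the siRNA in control cells the adjusted p there was up to 0.0426. The interaction was -0.24 ± 0.22 (adjusted p = 0.556), and -0.50 without both libraries that stood apart (adjusted p = 0.0483). Per kilobase of exon Ern1 was among the lowest members, at a mean of 2.43 CPM per kilobase over all libraries, where P4hb, Pdia3, Calr, Hsp90b1 and Hspa5 led with 466, 360.4, 309, 286 and 274.

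Atf6, the membrane-bound transcription factor, was at 95.2, 95.3 and 98.7 CPM in sgBACH1_siFEM1B, 133, 125 and 111 in sgCTRL_siFEM1B, 107, 108 and 111 in sgBACH1_siCTRL and 116, 132 and 128 in sgCTRL_siCTRL. The knockout lowered it under FEM1B siRNA (-0.35 ± 0.07, adjusted p = 0.000132) and under control siRNA (-0.21 ± 0.06, adjusted p = 0.0116); the second call ended without replicate 2 of sgCTRL_siCTRL (adjusted p = 0.0637). Its siRNA effect in knockout cells was near the threshold (-0.17 ± 0.07, adjusted p = 0.0408) and ended without any 1 of the 6 knockout libraries or replicate 3 of sgCTRL_siCTRL (adjusted p up to 0.119).

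With BACH1 knockout under FEM1B siRNA, 4 of the 37 members were higher and 17 lower, against 28.2% and 26.4% of all genes tested, with a median of -0.17 against 0.01 over all genes. Under control siRNA the counts were 14 higher and 5 lower, against 24.2% and 26.3%, with a median of 0.09 against -0.02. These comparisons share no library. Under control siRNA the lower count was 3 without replicate 2 of sgCTRL_siCTRL and 8 without replicate 2 of sgBACH1_siFEM1B.

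With the knockout the log2 fold change of Hspa5 was -0.22 ± 0.13 under FEM1B siRNA (adjusted p = 0.143), and it rose by 0.61 ± 0.13 under control siRNA (adjusted p = 0.000471). Under FEM1B siRNA it became a call without replicate 2 of sgBACH1_siFEM1B (-0.45, adjusted p = 0.000498) and without replicate 1 of sgCTRL_siFEM1B (-0.33, adjusted p = 0.0331). Hsp90b1, Hyou1 and Edem1 were called lower under FEM1B siRNA and higher under control siRNA, which 24 of all genes were (0.181%). For Hsp90b1 these values were -0.24 ± 0.09 under FEM1B siRNA (adjusted p = 0.0355) and 0.38 ± 0.09 under control siRNA (adjusted p = 0.0022); the first call ended without replicate 1 or 3 of sgBACH1_siFEM1B or replicate 3 of sgCTRL_siFEM1B (adjusted p = 0.204, 0.188 and 0.121), with DESeq2 (0.0977) and with only the 6 libraries compared (0.0837). Hyou1 was at -0.26 ± 0.06 under FEM1B siRNA (adjusted p = 0.000773) and 0.15 ± 0.06 under control siRNA (adjusted p = 0.0282), and the second call ended without replicate 1 or 3 of sgBACH1_siCTRL or of sgCTRL_siCTRL (adjusted p up to 0.121). Edem1 was at -0.20 ± 0.06 under FEM1B siRNA (adjusted p = 0.0145) and 0.20 ± 0.07 under control siRNA (adjusted p = 0.0136). Its first call ended without replicate 1 or 3 of sgBACH1_siFEM1B (adjusted p = 0.0687 and 0.108), its second without replicate 3 of sgBACH1_siCTRL or replicate 1 of sgCTRL_siCTRL (adjusted p = 0.0503 and 0.0513). Under FEM1B siRNA 6 of the 9 disulfide isomerases and relatives were lower in the knockout, among them Pdia5 (-0.44 ± 0.08, adjusted p = 0.000105), Creld2 (-0.44 ± 0.09, adjusted p = 0.000318), Pdia6 (-0.35 ± 0.06, adjusted p = 8.72e-05) and P4hb (-0.29 ± 0.07, adjusted p = 0.00158). Under control siRNA none of the 9 was called lower and 1, Txndc5, was called higher (0.18 ± 0.06, adjusted p = 0.0131), a call that ended without replicate 3 of sgBACH1_siCTRL (adjusted p = 0.0617). Pdia3 (-0.13 ± 0.05, adjusted p = 0.0502) and Pdia6 (-0.14 ± 0.06, adjusted p = 0.0633) were near the threshold there. Both were called lower with no filter on low counts and without replicate 2 of sgBACH1_siFEM1B.

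Other members differed between the lines under both siRNAs. Wfs1 (wolframin), an ER membrane protein of calcium homeostasis, was at 44.3, 49 and 46.8 CPM in sgBACH1_siFEM1B, 106, 100.2 and 96 in sgCTRL_siFEM1B, 43.1, 42.4 and 39.9 in sgBACH1_siCTRL and 71.9, 77 and 74.3 in sgCTRL_siCTRL. Its knockout effect was -1.11 ± 0.06 under FEM1B siRNA (adjusted p = 1.31e-11), the largest of the 37 members in that comparison, and -0.83 ± 0.06 under control siRNA (adjusted p = 1.07e-09), while the FEM1B siRNA raised it in control cells (0.44 ± 0.06, adjusted p = 8.39e-06). Sil1, a nucleotide exchange factor of Hspa5, was at 37, 40.3 and 40.6 CPM in sgBACH1_siFEM1B, 52, 53.9 and 56.5 in sgCTRL_siFEM1B, 40.7, 50.4 and 41.8 in sgBACH1_siCTRL and 66.5, 67.6 and 60.4 in sgCTRL_siCTRL. The knockout lowered it by 0.46 under FEM1B siRNA (-0.46 ± 0.08, adjusted p = 6.26e-05) and by 0.55 under control siRNA (-0.55 ± 0.08, adjusted p = 7e-06). Os9, a lectin of the degradation pathway, was at 122, 114 and 125 CPM in sgBACH1_siFEM1B, 133, 133 and 139 in sgCTRL_siFEM1B, 114, 115 and 113 in sgBACH1_siCTRL and 125, 133 and 124 in sgCTRL_siCTRL and was also lower under both siRNAs (-0.17 ± 0.05 in each, adjusted p = 0.0112 under FEM1B siRNA and 0.0115 under control siRNA). These calls ended without replicate 2 of sgBACH1_siFEM1B (adjusted p = 0.0555) and without replicate 2 of sgCTRL_siCTRL (adjusted p = 0.0661).

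Among the remaining degradation and translocon genes, Derl1, a derlin, was higher in the knockout under control siRNA (0.19 ± 0.05, adjusted p = 0.00289), as was Derl2 (0.22 ± 0.07, adjusted p = 0.00794). Ssr1, a subunit of the translocon-associated TRAP complex, rose by 0.39 ± 0.06 in that comparison (adjusted p = 4.13e-05). Sel1l, the partner of Syvn1 in its ligase complex, fell with the knockout under FEM1B siRNA (-0.29 ± 0.06, adjusted p = 0.00026). Sec61b, a subunit of the translocation channel, was at 35.4, 34.9 and 36.3 CPM in sgBACH1_siFEM1B, 24.9, 28.9 and 36.6 in sgCTRL_siFEM1B, 27.7, 31.6 and 28.6 in sgBACH1_siCTRL and 28.8, 25.1 and 24.6 in sgCTRL_siCTRL. Its call with the siRNA in knockout cells ended without replicate 1 or 3 of sgBACH1_siCTRL or any 1 of the sgBACH1_siFEM1B libraries (adjusted p up to 0.138).

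**Figure D4:**
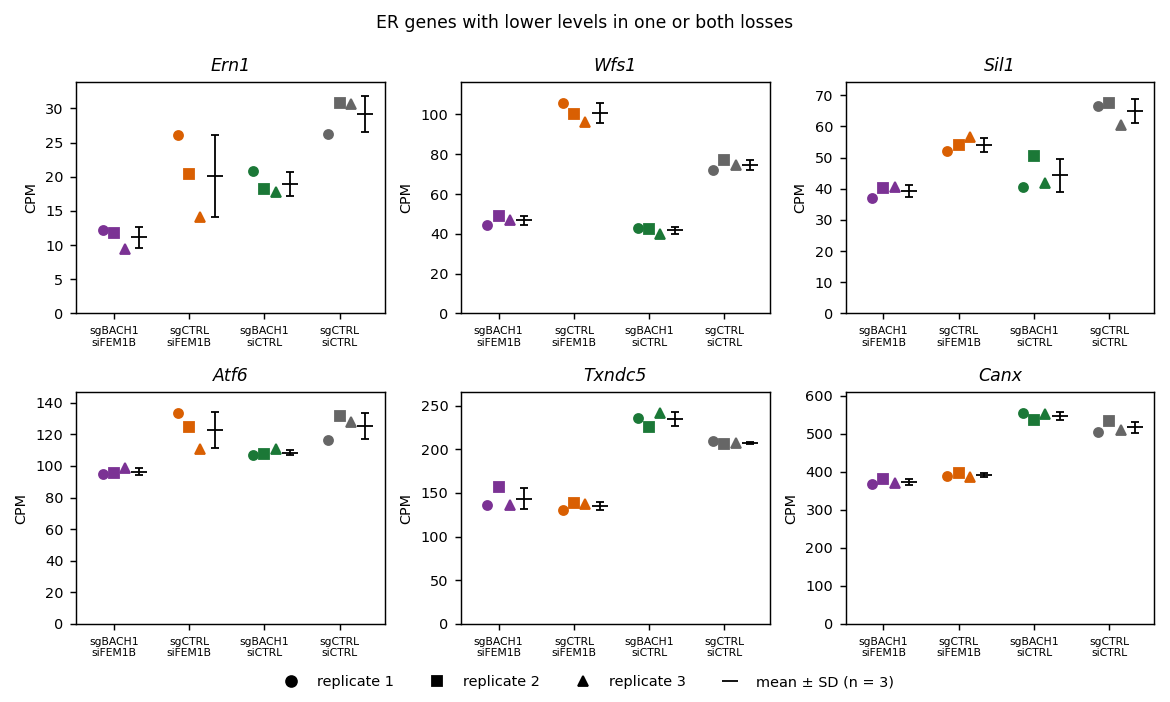
Level in CPM (y axis, from 0) of Ern1, Wfs1, Sil1, Atf6, Txndc5 and Canx by group (x axis) and library (symbols give the replicate number, bars the mean ± SD, n = 3). Ern1 is lowest with both losses, at 9.41 to 12.2 CPM, Wfs1 and Sil1 separate the knockout from the control line, and Txndc5 and Canx separate FEM1B siRNA from control siRNA.

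Fkbp2, Syvn1, Ppib and Manf were higher in the knockout under both siRNAs, which 18.6% of all genes tested were. Fkbp2 (FKBP13), a prolyl isomerase, was at 112, 110.2 and 117 CPM in sgBACH1_siFEM1B, 70.2, 66.2 and 79.7 in sgCTRL_siFEM1B, 98.9, 107 and 96.4 in sgBACH1_siCTRL and 65.5, 59.1 and 63.5 in sgCTRL_siCTRL. Syvn1 (HRD1), the ubiquitin ligase of ER-associated degradation, was at 162, 169 and 163 CPM in sgBACH1_siFEM1B, 111, 110.2 and 123 in sgCTRL_siFEM1B, 149, 139 and 149 in sgBACH1_siCTRL and 87.4, 90.7 and 96.8 in sgCTRL_siCTRL. Ppib, the ER cyclophilin, was at 368, 346 and 355 CPM in sgBACH1_siFEM1B, 263, 278 and 281 in sgCTRL_siFEM1B, 311, 332.5 and 320.1 in sgBACH1_siCTRL and 267, 238 and 238 in sgCTRL_siCTRL. For these 3 genes every knockout library was above every control library under the same siRNA. The log2 fold changes under FEM1B siRNA were 0.65 ± 0.07 for Fkbp2 (adjusted p = 1.29e-07), 0.52 ± 0.06 for Syvn1 (adjusted p = 2.93e-07), 0.38 ± 0.05 for Ppib (adjusted p = 7.38e-06) and 0.23 ± 0.08 for Manf (adjusted p = 0.0186). The call of Manf ended without replicate 1 or 2 of sgCTRL_siFEM1B or replicate 2 of sgBACH1_siFEM1B (adjusted p = 0.131, 0.0727 and 0.0761). Under control siRNA they were 0.68 ± 0.07 for Fkbp2 (adjusted p = 6.93e-08), 0.67 ± 0.06 for Syvn1 (adjusted p = 9.18e-09), 0.37 ± 0.05 for Ppib (adjusted p = 9.95e-06) and 0.84 ± 0.08 for Manf (adjusted p = 4.79e-08).

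Whole chromosomes differed between the lines, and these genes lie on shifted ones. The median log2 fold change of the knockout under control siRNA was 0.44 over genes on chromosome 19 (Fkbp2 and Syvn1), 0.27 on chromosome 9 (Manf, Ppib and Hyou1), 0.24 on chromosome 14 (Dnajc3), -0.28 on chromosome 12 (Pdia6, Sel1l and Dnajb9) and -0.18 on chromosome 18 (Sil1). With each chromosome's median removed, Manf kept 0.57 (adjusted p = 1.08e-05), Fkbp2 0.24 (adjusted p = 0.00744), Syvn1 0.23 (adjusted p = 0.00357) and Sil1 -0.37 (adjusted p = 0.000591) under control siRNA. The calls of Ppib (0.10, adjusted p = 0.148) and Dnajc3 (0.15, adjusted p = 0.101) ended, and the value of Hyou1 turned below 0 (-0.12, adjusted p = 0.0948). Under FEM1B siRNA the calls of Syvn1 (0.08, adjusted p = 0.237), Ppib (0.11, adjusted p = 0.11), Sel1l (-0.01, adjusted p = 0.86), Pdia6 (-0.07, adjusted p = 0.391) and Manf (-0.04, adjusted p = 0.719) ended too, that of Manf with a turn of sign. The call of Erp44 ended as well, so 15 of the 21 calls of this comparison stayed. Pdia6 and Erp44 were among the disulfide isomerases and relatives counted above as lower in the knockout. The calls of Herpud1 and Sec61b with the siRNA in knockout cells ended narrowly (adjusted p = 0.0532 and 0.0517), that of Atf6 at 0.0852, and that of Ssr1 ended too. Dnajb9, called in no comparison as fitted, was then called higher in the knockout under FEM1B siRNA (0.41, adjusted p = 0.00351) and under control siRNA (0.27, adjusted p = 0.0462). Hspa5 on chromosome 2 was at 0.74 (adjusted p = 8.32e-05), and all 9 interaction calls stayed. Several members overlap exons of a coding gene on the opposite strand, by 825 bases for Ppib and Snx22, 231 for Derl2 and Mis12, 224 for Txndc5 and Bmp6 and 146 for Manf and Dcaf1. Shorter overlaps were 91 bases for Syvn1 and Mrpl49, 75 for Txndc11 and Snn, 50 for Pdia6 and Atp6v1c2 and 18 for Pdia3 and Catsper2. The strand setting of the counting is not given in the sources used here, so reads there may not be told apart.

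**Figure D5:**
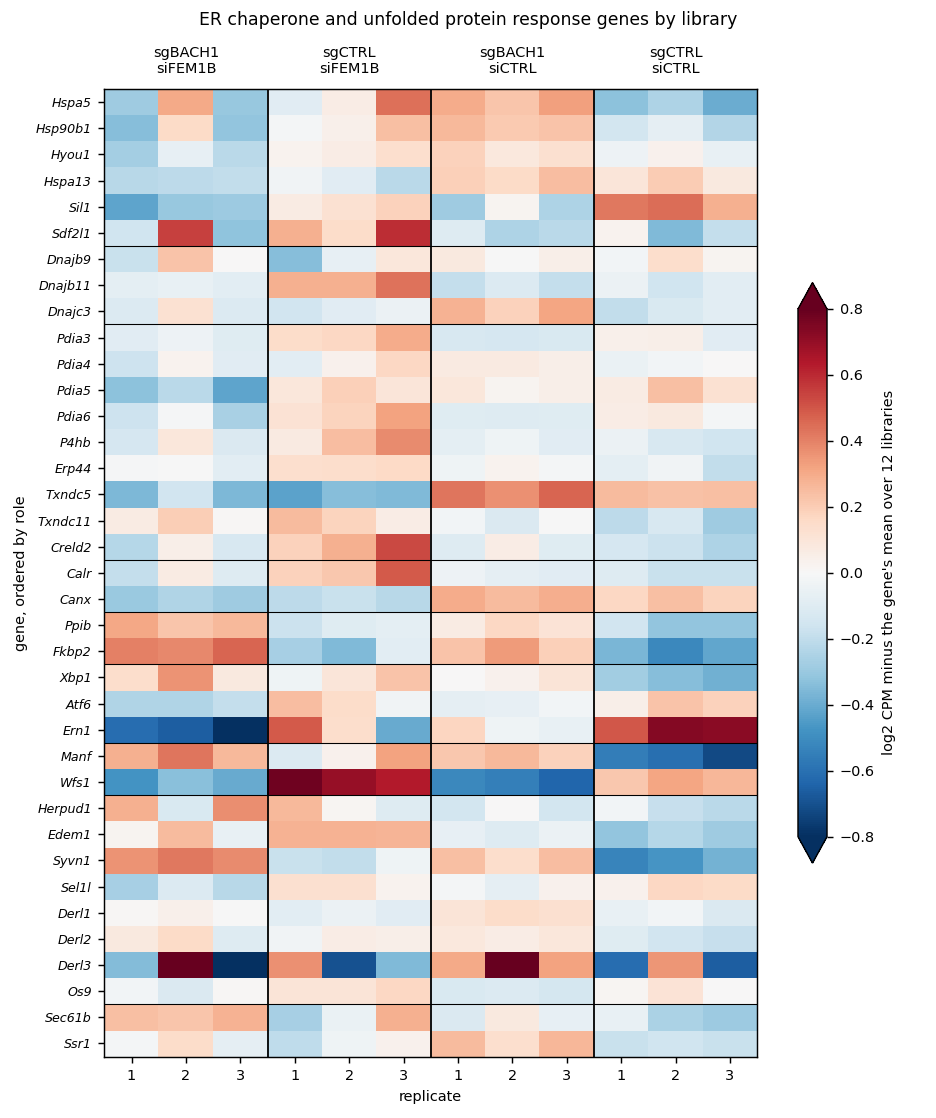
Log2 CPM of each of the 37 members minus its mean over the 12 libraries (colour, log2 units), by library (columns) and gene (rows, grouped by role). Hspa5, Sdf2l1 and Calr are high in sgCTRL_siFEM1B replicate 3, Hspa5 and Sdf2l1 also in sgBACH1_siFEM1B replicate 2, and Ern1 falls to its lowest in sgBACH1_siFEM1B.

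Other genes of the pathway were counted in lists made for this purpose. Beside each pair of counts stand the shares of all genes tested that were called higher and lower in the same comparison, which for the interaction were 3.48% and 2.6%. Of 22 other folding enzymes and oxidoreductases, FEM1B siRNA raised 1 and lowered 10 in knockout cells (21.9% and 19.8%) and raised 3 and lowered 11 in control cells (22.1% and 22.9%), and the interaction called 1 lower. That gene was Ero1l, the oxidase that feeds disulfides to P4hb, at 536, 1045 and 542 CPM in sgBACH1_siFEM1B, 1157, 1513 and 1689.8 in sgCTRL_siFEM1B, 1107, 959 and 1112 in sgBACH1_siCTRL and 889, 1067 and 832 in sgCTRL_siCTRL (interaction -1.23 ± 0.25, adjusted p = 0.00834). Replicate 2 of sgBACH1_siFEM1B was again apart from the other libraries of its group. The prolyl isomerase Fkbp9 was lower with the siRNA in both genotypes, at -0.56 ± 0.05 in knockout cells (adjusted p = 6.38e-08) and -0.45 ± 0.05 in control cells (adjusted p = 6.43e-07).

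Of 16 translocon and signal peptidase genes, the knockout raised 4 and lowered 4 under FEM1B siRNA (28.2% and 26.4%) and raised 8 and lowered 1 under control siRNA (24.2% and 26.3%). The siRNA raised 3 and lowered 5 in knockout cells (21.9% and 19.8%) and raised 5 and lowered 2 in control cells (22.1% and 22.9%). The signal peptidase subunit Sec11c rose with the siRNA in control cells (0.67 ± 0.11, adjusted p = 4.26e-05), while its partner Spcs3 fell (-0.57 ± 0.09, adjusted p = 2.42e-05). In the interaction 1 of the list was lower, Sec61a1 (-0.23 ± 0.06, adjusted p = 0.0387), a call kept only without replicate 1 or 3 of sgCTRL_siFEM1B or replicate 2 of sgBACH1_siFEM1B and lost in the other 9 single omissions (adjusted p up to 0.127). Of 16 N-glycosylation genes, the knockout raised 5 and lowered 7 under FEM1B siRNA (28.2% and 26.4%) and raised 7 and lowered 3 under control siRNA (24.2% and 26.3%). The siRNA raised 4 and lowered 4 in knockout cells (21.9% and 19.8%) and raised 4 and lowered 0 in control cells (22.1% and 22.9%), and none was called in the interaction. Of 18 other degradation genes, the knockout raised 5 and lowered 4 under FEM1B siRNA (28.2% and 26.4%) and raised 6 and lowered 2 under control siRNA (24.2% and 26.3%). The siRNA raised 2 and lowered 4 in knockout cells (21.9% and 19.8%) and raised 3 and lowered 5 in control cells (22.1% and 22.9%), and none was called in the interaction.

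Of 13 genes of the PERK branch, the siRNA raised 1 and lowered 1 in knockout cells (21.9% and 19.8%) and raised 3 and lowered 3 in control cells (22.1% and 22.9%). The knockout raised 0 and lowered 5 under FEM1B siRNA (28.2% and 26.4%) and raised 1 and lowered 5 under control siRNA (24.2% and 26.3%), and the interaction called 1 lower. Eif2ak3, the PERK kinase itself, was at 32.7, 35 and 35.5 CPM in sgBACH1_siFEM1B, 44.1, 44.0017 and 44.5 in sgCTRL_siFEM1B, 36.7, 30.4 and 32.3 in sgBACH1_siCTRL and 36.7, 36.1 and 35.5 in sgCTRL_siCTRL. It was higher with the siRNA in control cells (0.29 ± 0.07, adjusted p = 0.00253), as was Nupr1 of the same list (0.75 ± 0.10, adjusted p = 4.68e-06). Atf4, the branch's transcription factor, fell there (-0.32 ± 0.09, adjusted p = 0.00562) and so did its target Trib3 (-0.61 ± 0.15, adjusted p = 0.00298). In knockout cells Nupr1 was also higher (0.34 ± 0.10, adjusted p = 0.0086). Atf4 (-0.17 ± 0.09, adjusted p = 0.132) and Trib3 (-0.35 ± 0.16, adjusted p = 0.0775) were not called in knockout cells. Atf3, a stress-induced transcription factor, was the interaction call (-0.44 ± 0.12, adjusted p = 0.0392). It was kept without replicate 1 or 3 of sgCTRL_siFEM1B, replicate 1 of sgBACH1_siCTRL or replicate 2 of sgBACH1_siFEM1B, and lost in the other 8 single omissions (adjusted p up to 0.132).

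Of 14 other stress-sensor genes tested, the siRNA raised 8 and lowered 2 in knockout cells (21.9% and 19.8%) and raised 7 and lowered 2 in control cells (22.1% and 22.9%). The knockout raised 4 and lowered 4 under FEM1B siRNA (28.2% and 26.4%) and raised 3 and lowered 8 under control siRNA (24.2% and 26.3%), and the interaction called 1 higher, Casp12 (1.29 ± 0.36, adjusted p = 0.0369). That call was kept without replicate 1 or 3 of sgCTRL_siFEM1B or replicate 2 or 3 of sgBACH1_siFEM1B, and lost in the other 8 single omissions (adjusted p up to 0.155). Mbtps2, the site-2 protease that completes cleavage of ATF6, was at 31.5, 30.6 and 33.6 CPM in sgBACH1_siFEM1B, 32.4, 35.8 and 30.5 in sgCTRL_siFEM1B, 57.4, 53.9 and 54 in sgBACH1_siCTRL and 66.1, 74.5 and 69.8 in sgCTRL_siCTRL. It was lower with FEM1B siRNA in both genotypes, at -0.79 ± 0.07 in knockout cells (adjusted p = 8.5e-08) and -1.09 ± 0.07 in control cells (adjusted p = 7.46e-10). Creb3l1 (OASIS), an ATF6-like membrane factor, was at 17.5, 16.2 and 18 CPM in sgBACH1_siFEM1B, 0.67, 0.29 and 0.38 in sgCTRL_siFEM1B, 21.7, 18 and 20.5 in sgBACH1_siCTRL and 0.27, 0.047 and 0.20 in sgCTRL_siCTRL, the last of which rest on 1 to 6 counts a library. It was called higher in the knockout under both siRNAs (adjusted p = 1.03e-13 under FEM1B siRNA and 1.08e-14 under control siRNA).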

How the data were processed

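RNA-seq counts were analysed from 12 libraries of 1 cell line, 3 per group; the design text calls the 3 biological replicates, but nothing says how they were separated, so p-values measure the spread between these samples. The deposited table holds raw read counts per gene symbol. Total RNA was made into libraries with a stranded mRNA kit, per the labels' protocols. Named in the submitters' processing notes are the mm10 build, SAMtools 1.9, DESeq2 1.26.0, featureCounts 1.6.4 and Subread, without saying which step used which. Annotation and strand setting: not given in the sources used here. No normalization is stated for the deposited counts, whose totals differ between libraries.

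Genes were filtered with filterByExpr (minimum count 10), scaled by TMM and fitted with edgeR 4.0.16 in R 4.3.3 (quasi-likelihood F test, two-sided, 1 mean per group, 8 residual degrees of freedom). P-values were adjusted by Benjamini-Hochberg over all 13281 genes and called below 0.05. SE is the absolute log2 fold change over the square root of F. The 5 contrasts were the knockout effect under each siRNA, the siRNA effect in each genotype and their difference; each knockout effect shares libraries with each siRNA effect, and the interaction uses all 4 groups. Alternatives were RLE size factors, no filter, the members' own count rule as the filter, DESeq2 1.42.0, only the 6 libraries compared, a replicate block, removal of chromosome medians (13229 genes with a position) and leaving out each library; leaving out both libraries that stood apart was added after seeing the data. The fits were tested on simulated data. Exon lengths came from GENCODE M21 and promoters from RefSeq. Same-numbered samples did not deviate together (18 pairs, correlations -0.115 to 0.0788), so the numbers were not used as pairs. Replicates of a group differed by more than sampling noise (chi-square per degree of freedom 2.54 to 14.1), and none were identical.

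The members and lists were chosen with earlier results of these data known. Values in all libraries are given for 12 set genes (Hspa5, Hsp90b1, Manf, Sdf2l1, Creld2, Dnajb9, Herpud1, Xbp1, Atf6, Ern1, Edem1 and Derl3), and for the 5 members with the largest called change in each direction of each contrast. Of each other list at most the 4 genes with the smallest p in a contrast could be named. The values of Hyou1, Dnajb11, P4hb, Eif2ak3, Ero1l, Mbtps2 and Creb3l1 in every library, and the markers Krt7, Cdh1 and Epcam, were chosen for printing after they were seen.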

Additional observations from a re-analysis of the deposited data

Results flagged for a closer look

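The effect of FEM1B siRNA differed between BACH1 knockout and control cells, by the test of the interaction itself, for 9 of the 37 members. The log2 difference was -0.83 for Hspa5, -0.62 for Hsp90b1, -0.41 for Hyou1, -0.34 for Dnajb11, -0.33 for P4hb, -0.58 for Creld2, -0.46 for Calr, -0.61 for Manf and -0.40 for Edem1. Among genes of the other lists the same test picked out Sec61a1 (-0.23), Ero1l (-1.23), Atf3 (-0.44) and Casp12, the only one of these with a positive difference (1.29); among these 4, the call of Ero1l was kept in all 12 omissions of a single library. With 3 libraries per group no single library was tested as an outlier within its group.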

How the results depend on the processing

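Of the counts of called members, these moved by more than 1.5 times. With both libraries that stood apart left out, an alternative chosen after seeing the data, the knockout lowered 8 members in place of 5 under control siRNA, and the interaction was lower for 23 in place of 9. DESeq2 gave 15 lower members in the interaction. With chromosome medians removed, FEM1B siRNA raised 2 members in knockout cells in place of 4, and 3 knockout effects turned direction. The log2 fold change of Manf under FEM1B siRNA was -0.038. That of Hyou1 under control siRNA was -0.12, and that of Dnajb9 under control siRNA was 0.27, against an uncalled value near 0. The labels number replicates 1 to 3 in each group; fitted as a replicate block, FEM1B siRNA raised 2 members in knockout cells, and the numbers did not pair the samples. Leaving out 1 library at a time, the knockout raised 3 to 5 and lowered 14 to 19 members under FEM1B siRNA, and raised 11 to 14 and lowered 3 to 8 under control siRNA. The siRNA raised 1 to 5 and lowered 8 to 14 in knockout cells, and raised 14 to 21 and lowered 4 to 5 in control cells. The interaction was lower for 6 to 18 and higher for 0 to 0. Over the members and the other genes named except Nupr1, these omissions left 2723 values unchanged, called in the same direction in both fits or called in neither. Another 156 lost the call, 61 gained it, and none called in either fit changed sign. The sign of values called in neither fit was not counted. Over the other alternatives 1770 were unchanged in this sense, 45 lost the call and 90 gained it. The causes were not tested. Derl3, with 5 to 26 counts a library, is limited by depth.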
